A study of Mus musculus with 22 samples.

Results

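The 10 genes described here encode parts of the fibroblast growth factor (FGF) and hepatocyte growth factor (HGF) pathways. They are the ligands Fgf1, Fgf2, Fgf7, Fgf10 and Fgf18, the FGF receptors Fgfr1, Fgfr2 and Fgfr3, and Hgf with its receptor Met. They were found by symbol among the 41388 genes of the deposited count files, where each of the 10 had a single entry. RNA had been sequenced from 22 libraries of stromal cells sorted out of tumors by the lineage reporter TdTomato (TdTOSX) and the pan-leukocyte marker CD45. The 4 populations were TdTOSX single positive (TdTOSX+;CD45-), double positive (TdTOSX+;CD45+), CD45 single positive (TdTOSX-;CD45+) and double negative (TdTOSX-;CD45-). The hosts were C57BL/6 mice of postnatal day 56 in 2 genotypes, Osx-cre;Ai9 (called wild type) and Cdh2-cKO;Ai9, a conditional knockout of the cadherin gene Cdh2. Each genotype contributed 2 libraries of the TdTOSX single positive and 3 of every other sort.

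Both genotypes carry Osx-cre, a tetracycline-repressible Cre driven by the Sp7 (osterix) promoter, and the Ai9 reporter. TdTomato therefore marks every cell with past or present Cre activity, not only cells that still make osterix. Per the paper, the experiments after its first ones used mice fed doxycycline until weaning, which represses this Cre until then. Its account of the sequenced sorts does not repeat the diet. The labels name the tumor as an orthotopic MMTV-BO1 breast tumor, whereas the design text speaks of subcutaneous tumors and the study's methods of the PyMT-BO1 line. Libraries came from 4 inoculated wild type and 6 inoculated Cdh2-cKO mice, and the sources used here do not say which populations came from the same mouse, so the p-values measure the spread between these libraries.

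FGFs are secreted proteins that bind heparan sulfate and their receptor tyrosine kinases together. Fgf7 and Fgf10 are made mainly by mesenchymal cells and act on epithelial cells through a splice form of Fgfr2, whereas Fgfr1 is the FGF receptor most typical of mesenchyme. HGF is secreted as an inactive precursor by fibroblasts and some myeloid cells, is cleaved by serine proteases such as matriptase and hepsin, and activates Met on epithelial, endothelial and tumor cells. Both pathways run through adaptors such as Frs2, Grb2 and Gab1 into the MAP kinase cascade, which induces its own inhibitors of the Sprouty and Spred families.

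On the mouse genome GRCm38, the files place Fgf7 at chr2:126034658-126091185 (plus strand), Fgf10 at chr13:118669791-118792115 (plus), Fgf18 at chr11:33117430-33147400 (minus), Fgf1 at chr18:38838673-38929404 (minus) and Fgf2 at chr3:37312519-37405377 (plus). Fgfr1 lies at chr8:25513654-25575714 (plus), Fgfr2 at chr7:130162451-133123350 (minus), Fgfr3 at chr5:33721724-33737068 (plus), Hgf at chr5:16553550-16619439 (plus) and Met at chr6:17463800-17573980 (plus). All 10 are protein-coding genes, and values refer to reads over the exons of a gene that the study counted as uniquely aligned and unambiguous. Some exons are shared with other annotated genes in GENCODE M21: 640 bases of Fgf2 with the antisense gene Nudt6, 998 bases of Fgfr3 with the antisense gene G630022F23Rik, 314 bases of Fgfr2 with Ctbp2 and 484 bases of Hgf with Gm43489. Reads over shared bases would be left out of the counts where the study's own annotation holds both genes. The kit does not mark strand, so this includes antisense overlaps. Which of these overlaps that annotation holds was not checked, so reads over those of Fgf2 and Fgfr3 stay uncertain.

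Between 16594228 and 26784003 reads were counted on genes per library. The labelled leukocyte split held in the counts: summed over 5 leukocyte markers, the normalized CPM (the share of a library's counts, scaled as CPM, after TMM normalization) ranged from 8843 to 11376 in the 12 CD45+ libraries and from 170 to 5163 in the 10 CD45- libraries. None of the markers of leukocytes was at 0 in any CD45- library, and the highest CD45- sums were 5163 in wild type double negative replicate 3 and 3543 in Cdh2-cKO TdTOSX single positive replicate 1. Wild type CD45 single positive replicate 2 stood apart from the other CD45+ libraries, with 3450 CPM of B cell and 1565 CPM of T cell markers. The 8 fibroblast markers summed to between 4309 and 60187 CPM in CD45- and between 63.6 and 223 CPM in CD45+ libraries, and all 8 of them were called higher in CD45- cells. Cdh2 itself was not lower in the libraries labelled Cdh2-cKO: TdTOSX single positive cells held 9.13 and 5.19 CPM in wild type and 17.2 and 13.1 CPM in the libraries labelled knockout (log2 difference of 1.08 with an SE of 0.843, adjusted p = 0.668 in edgeR). Which part of Cdh2 is removed is not given in the sources used here, so counts over the whole gene may not show the deletion, and every genotype value below refers to the label only.

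The bases upstream of the start sites are shown for Fgf7 and Fgf10, the members with the largest differences between CD45- and CD45+ cells, and for Hgf, the member that was lower in CD45- cells. RefSeq (GRCm38.p6) promoter entries were matched for 8 of the 10 genes, Hgf with 2 start sites of which the upstream one is used, and the windows printed hold no annotated exon. Each run is the 250 bases before the start, 5′ to 3′, at chr2:126034408-126034657, chr13:118714449-118714698 and chr5:16553245-16553494, all on the plus strand. Capitals mark matches on either strand to 4 promoter elements, the TATA box (TATAAA), the CCAAT box (CCAAT), the GC box (GGGCGG) and the AP-1 element (TGANTCA).
Fgf7: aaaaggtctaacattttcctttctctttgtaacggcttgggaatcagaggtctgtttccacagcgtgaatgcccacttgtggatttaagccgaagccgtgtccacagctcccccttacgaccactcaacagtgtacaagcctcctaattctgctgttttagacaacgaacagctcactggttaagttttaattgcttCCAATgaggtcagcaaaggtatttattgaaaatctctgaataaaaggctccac
Fgf10: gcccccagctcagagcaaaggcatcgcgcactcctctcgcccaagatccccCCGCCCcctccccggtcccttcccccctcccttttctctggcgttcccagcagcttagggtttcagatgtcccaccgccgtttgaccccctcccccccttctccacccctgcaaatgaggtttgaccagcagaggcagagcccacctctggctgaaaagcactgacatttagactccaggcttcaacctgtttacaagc
Hgf: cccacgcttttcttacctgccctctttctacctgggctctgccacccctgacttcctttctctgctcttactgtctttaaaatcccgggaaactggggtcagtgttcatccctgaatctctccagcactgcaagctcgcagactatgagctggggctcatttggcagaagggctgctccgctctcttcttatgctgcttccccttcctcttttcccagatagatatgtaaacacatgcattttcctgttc
The Fgf7 window held 1 CCAAT box, the Fgf10 window 1 GC box, and the Hgf window none of the 4 elements. Over 32851 mouse promoter windows of the same length, 33.8% held a CCAAT box, 32.7% a GC box, 12.4% a TATA box and 6.75% an AP-1 element. The letters G and C made up 43.6% of the Fgf7, 61.2% of the Fgf10 and 50.8% of the Hgf window, against a median of 52.4% over all windows. These matches describe the sequence only, and no binding was measured.

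Levels were compared between genes as RPKM (CPM per kilobase of exon, from TMM-scaled counts). Across the 10 CD45- libraries Fgfr1 had the highest level of the 10 genes, with a median of 27.0 RPKM (range 9.58 to 43.1). Fgf7 followed with a median of 4.58 RPKM, Hgf with 1.85 and Met with 1.27, and the ranges of neighbours in this order overlapped. Fgf1 and Fgf18 were near 0.5 RPKM (medians 0.519 and 0.493), and the medians of Fgf10, Fgf2, Fgfr2 and Fgfr3 were between 0.0459 and 0.111 RPKM. In the 12 CD45+ libraries the order changed: Hgf came first with a median of 4.41 RPKM, followed by Fgfr1 with 0.817, Met with 0.407 and Fgf1 with 0.118, and the other 6 genes had medians below 0.05 RPKM. A floor of 3 counts per library corresponded to between 0.103 and 0.201 normalized CPM.

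**Figure D1:**
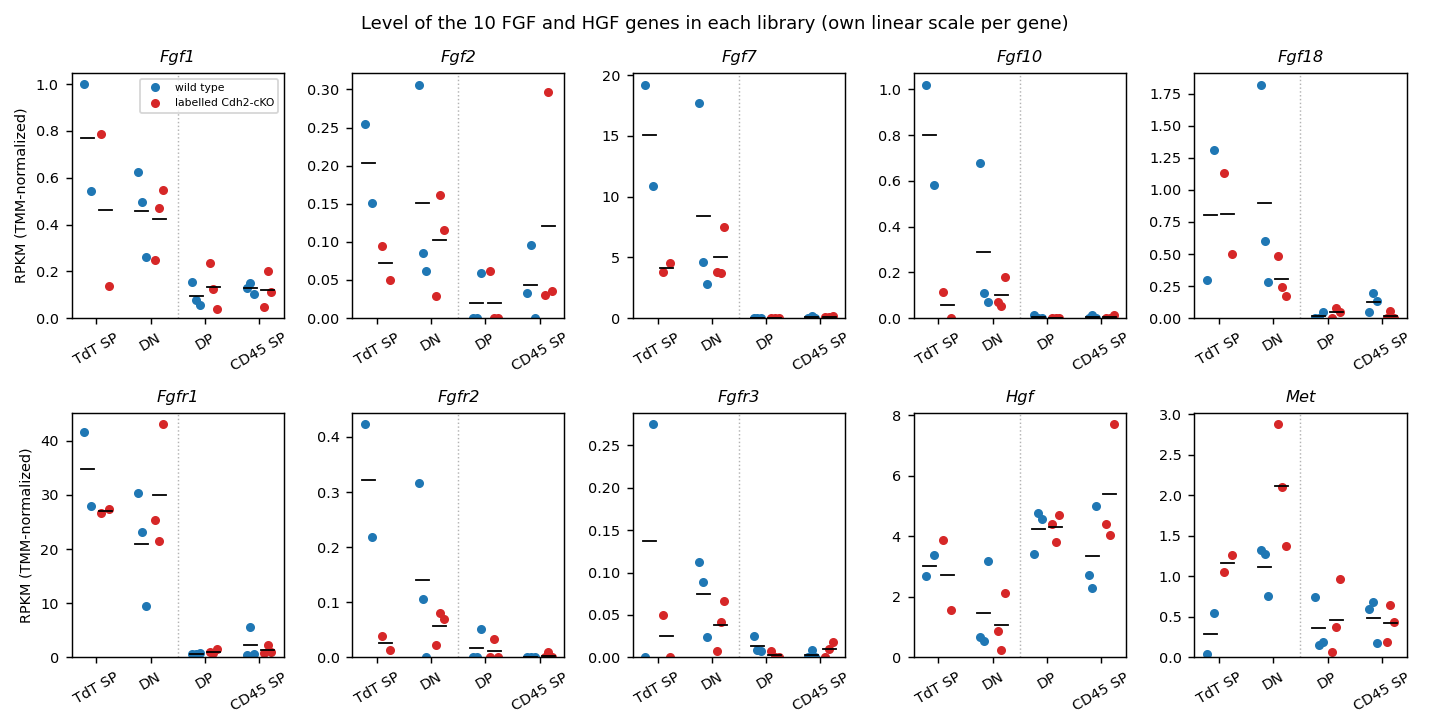
Level of each of the 10 genes in each of the 22 libraries, in TMM-normalized RPKM on a linear axis of its own per gene, by population (CD45- populations left of the dotted line) and by labelled genotype. Points are libraries and bars are group means of 2 or 3 libraries; Fgfr1 and Fgf7 separate CD45- from CD45+ libraries without overlap, whereas Hgf runs the other way and Met is highest in double negative cells.

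The first question was how the pathway genes differ between the non-leukocyte (CD45-) and the leukocyte (CD45+) stroma. The ligands Fgf7, Fgf10, Fgf18 and Fgf1 and the receptors Fgfr1, Fgfr2 and Met were higher in CD45- cells, and Hgf was higher in CD45+ cells. Of the 10 genes, 8 passed the filter on low counts (more than 1 CPM in at least 2 libraries), and all 8 passed edgeR's quasi-likelihood test (called where p, adjusted by Benjamini-Hochberg, was 0.05 or less), 7 higher and 1 lower in CD45- cells. Over all 15018 genes tested, 31.1% were called higher and 32.6% lower, so a call by itself was common, and the median log2 fold change was 4.04 over the 8 genes against -0.06 over all genes. For Fgf7, Fgf10, Fgf18 and Fgfr2 no CD45+ library exceeded 0.630 CPM, and Fgf1 exceeded 1 CPM in only 1 CD45+ library. These genes passed the filter through the CD45- libraries, which favoured a higher value there in advance. The count of 7 and the median of 4.04 are therefore no independent support, and the same limit applies to the counts against averaged populations below. In sorted bulk libraries, fewer cells of a type and less RNA per cell cannot be told apart.

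Fgf7, also known as keratinocyte growth factor, showed the largest difference. Its normalized CPM was 62.3 and 35.4 in the wild type and 12.2 and 14.7 in the Cdh2-cKO TdTOSX single positive libraries. In double negative cells it ranged from 9.20 to 57.6 CPM with a median of 13.8 (n = 6), while no CD45+ library exceeded 0.630 CPM (median 0.0590, n = 12). Every CD45- library lay above every CD45+ library. The log2 fold change was 7.75 with an SE of 0.544 (adjusted p = 2.34e-09, edgeR), or 216-fold. Of the 31 Fgf7 reads in all CD45+ libraries, 11 came from wild type CD45 single positive replicate 2. This is the library with lymphocyte and with 217 CPM of endothelial markers. Without it the log2 fold change was 9.02, but every library left in that group was at 0.

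Fgf10, the closest relative of Fgf7 among FGFs, was lower in level but split in the same way. It reached 4.69, 2.67, 0.514 and 0 CPM in the 4 TdTOSX single positive libraries. The double negative cells held 0.242 to 3.13 CPM (median 0.421). The 12 CD45+ libraries held 3 Fgf10 reads in total, against 291 reads in the CD45- libraries. The ratio of the pooled rates was 92.6 with an exact 95% counting interval of 31.4 to 452, which covers counting error only. The fitted log2 fold change was 5.61 (SE 0.810, adjusted p = 2.27e-05, edgeR), but without Cdh2-cKO TdTOSX single positive replicate 1 every library left in 2 of the groups was at 0 and the adjusted p was 1, with a log2 fold change of 4.25. Voom and DESeq2 on all libraries gave adjusted p-values of 2.2e-06 and 1.26e-09.

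Fgf18, which acts on cartilage and bone among other tissues, was at 0.208 to 2.16 CPM in CD45- and at 0 to 0.229 CPM in CD45+ libraries. Of the 10 CD45- libraries, 9 lay above the highest CD45+ library, and the log2 fold change was 3.95 (SE 0.570, adjusted p = 1.29e-05, edgeR). Fgf1, which binds all FGF receptors, was at 0.638 to 4.64 CPM in CD45- cells (median 2.41) and at 0.180 to 1.10 CPM in CD45+ cells (median 0.547). Its log2 fold change was 2.11 (SE 0.369, adjusted p = 8.94e-05, edgeR), and again 9 of 10 CD45- libraries lay above all CD45+ libraries. Fgf2, the other broadly acting ligand, did not pass the filter: it had 52 reads over all CD45- and 18 over all CD45+ libraries, a ratio of 2.76 (counting interval 1.59 to 5.01), and without a filter its adjusted p was 0.0722. Only 1 CD45- library, wild type double negative replicate 1 with 0.552 CPM, lay above the highest CD45+ value of Fgf2, the 0.535 CPM of Cdh2-cKO CD45 single positive replicate 2.

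Among the receptors, Fgfr1 was the most abundant. It was measured at 337, 228, 216 and 223 CPM in the 4 TdTOSX single positive libraries and at 77.8 to 350 CPM in double negative libraries (median 196). In CD45+ cells it ranged from 3.37 to 46.1 CPM, with medians of 6.57 in double positive and 7.18 in CD45 single positive cells. All 10 CD45- libraries lay above all 12 CD45+ libraries, and the log2 fold change was 4.51 (SE 0.411, adjusted p = 5.9e-08, edgeR). The lowest CD45- value, 77.8 CPM, belonged to wild type double negative replicate 3, which carried the most leukocyte marker RNA of the CD45- libraries, and the highest CD45+ value, 46.1 CPM, to wild type CD45 single positive replicate 2. Without these 2 libraries and Cdh2-cKO TdTOSX single positive replicate 1, an alternative chosen after seeing the data, the log2 fold change was 5.19. The part of admixed cells in these values was not tested.

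Fgfr2 was at 3.06, 1.59, 0.274 and 0.0911 CPM in TdTOSX single positive cells and at 0 to 2.30 CPM in double negative cells. It was at 0 in 9 of 12 CD45+ libraries, and all 13 CD45+ reads but 1 came from a single double positive library of each genotype. The log2 fold change was 4.12 (SE 0.929, adjusted p = 0.00115, edgeR), with 6 of 10 CD45- libraries above the highest CD45+ library. Gene counts do not separate the epithelial and the mesenchymal splice form of this receptor. Fgfr3 did not pass the filter, with 109 reads in CD45- and 10 in CD45+ libraries; 49 of the 109 came from wild type TdTOSX single positive replicate 2. Its pooled ratio was 10.4 (counting interval 5.45 to 22.3), and without a filter the log2 fold change was 3.15 (adjusted p = 0.002, edgeR).

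**Figure D2:**
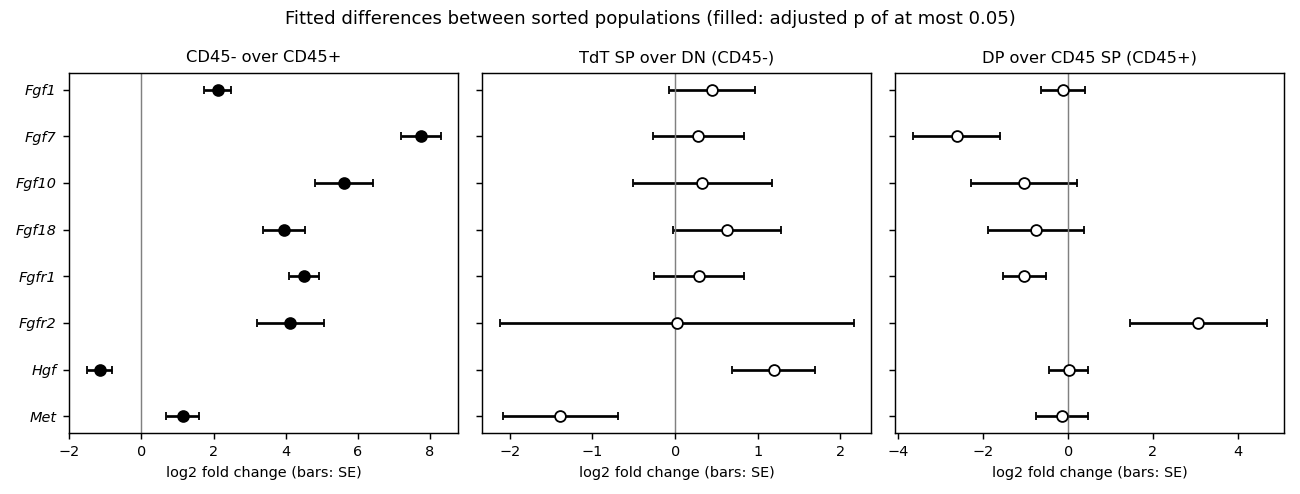
Fitted log2 fold changes with SE bars for the 8 genes that passed the filter, for CD45- over CD45+ cells, TdTOSX single positive (TdT SP) over double negative (DN) cells, and double positive (DP) over CD45 single positive (CD45 SP) cells. Filled points have an adjusted p of at most 0.05 (edgeR); 8 are filled in the first panel, with Fgf7 at 7.75 and Hgf at -1.16, and none in the other panels.

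Hgf went the other way. It was measured at 9.39 to 13.2 CPM in double positive cells (median 12.4, n = 6) and at 6.30 to 21.3 CPM in CD45 single positive cells (median 11.7, n = 6). The 4 TdTOSX single positive libraries held 7.40, 9.30, 10.7 and 4.33 CPM, and double negative libraries 0.679 to 8.76 CPM with a median of 2.13. Hgf RNA was thus present in every population, and 6 of 10 CD45- libraries lay below the lowest CD45+ library. The log2 fold change of CD45- over CD45+ cells was -1.16 (SE 0.351, adjusted p = 0.00791, edgeR). In the wild type libraries alone it was -0.84 with an adjusted p of 0.185, and in the Cdh2-cKO libraries alone -1.41 with an adjusted p of 0.016.

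Among the populations, Hgf had its lowest median in double negative cells. It was not called between these and TdTOSX single positive cells (adjusted p = 0.212, edgeR). Against the mean of the other 3 populations the log2 fold change of double negative cells was -1.57 (SE 0.417, adjusted p = 0.00507, edgeR). In the wild type libraries alone it was -1.25 with an adjusted p of 0.213. The wild type values were 1.88, 1.48 and 8.76 CPM and the Cdh2-cKO values 2.37, 0.679 and 5.88 CPM. The highest of these belonged to wild type double negative replicate 3, with a leukocyte marker sum of 5163 CPM against 170 and 825 CPM in replicates 1 and 2. Cdh2-cKO double negative replicate 3, the next highest, had a leukocyte sum of only 384 CPM, and 114 CPM of mast cell markers against 5.63 and 1.11 CPM in its replicates. Conversely, wild type TdTOSX single positive replicate 1 had 7.40 CPM of Hgf with a leukocyte sum of 207 CPM and a mast cell sum of 3.27 CPM. The other TdTOSX single positive libraries held 281, 199 and 59.8 CPM of the 4 mast cell markers, with Hgf at 9.30, 10.7 and 4.33 CPM, and the CD45+ libraries 3.39 to 62.8 CPM. The part of leukocytes and mast cells in the Hgf values was not tested beyond these numbers.

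Met had a more scattered pattern. Double negative libraries held 10.2, 9.77 and 5.78 CPM in wild type and 22.1, 16.1 and 10.6 CPM in Cdh2-cKO. TdTOSX single positive libraries held 0.306 and 4.18 CPM in wild type and 8.16 and 9.66 CPM in Cdh2-cKO. The CD45+ libraries ranged from 0.497 to 7.40 CPM with a median of 3.13. Met was higher in double negative cells than in the mean of the other 3 populations (log2 fold change of 1.69, SE 0.469, adjusted p = 0.00682, edgeR), and 5 of the 6 double negative libraries lay above every CD45+ library. In the wild type libraries alone that difference was 1.59 with an adjusted p of 0.215. Mitochondrial genes took 4.33%, 13.7% and 5.45% of the counts in the wild type and 10.6%, 7.89% and 2.99% in the Cdh2-cKO double negative libraries, and 1.38% to 4.19% in the other populations. The 3 libraries with the largest shares held 9.77, 22.1 and 16.1 CPM of Met and 1.48, 2.37 and 0.679 CPM of Hgf. The part of this sign of RNA quality in the values of Met and Hgf was not tested.

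The difference of Met between CD45- and CD45+ cells was smaller and less stable, at a log2 fold change of 1.14 (SE 0.451, adjusted p = 0.0358, edgeR). In the wild type libraries alone it was 0.46 with an adjusted p of 0.62. Leaving out single libraries ended the call in 11 of 22 fits. Without wild type TdTOSX single positive replicate 2 the log2 fold change was 0.42 (adjusted p = 0.466), since replicate 1 of that group then stood alone with 6 Met reads. In the other 10 such fits it stayed between 1.04 and 1.14 with adjusted p-values of 0.05 to 0.0629; they leave out wild type double positive replicate 2 or 3, CD45 single positive replicate 3, double negative replicate 1 or 2, and Cdh2-cKO TdTOSX single positive replicate 2, double positive replicate 2, CD45 single positive replicate 1 or 3, or double negative replicate 1.

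Epithelial cells are a known site of Met, and the study separated GFP+ tumor cells from the stroma before the sort. The 5 luminal epithelial markers (Epcam, Krt8, Krt18, Krt19 and Cdh1) summed to 505 to 1994 CPM in double negative libraries, to 132 to 470 CPM in CD45+ libraries, and to 33.8, 566, 933 and 928 CPM in the TdTOSX single positive libraries. These sums did not come from the whole list. The keratins Krt8, Krt18 and Krt19 were called higher in CD45- cells (log2 fold changes of 3.41, 3.51 and 7.08). Epcam and Cdh1 were called lower (-4.96 and -4.07, edgeR). Cdh1 was at 106 to 366 CPM in double positive and 85.2 to 311 CPM in CD45 single positive cells. Its medians there were 239 and 171 CPM, against 33.6 and 57.2 CPM for Krt18. The sums thus rest largely on Cdh1 in CD45+ and on keratins in CD45- libraries, and do not measure 1 cell type across them. Epcam was listed at 0 in 5 of the 10 CD45- libraries and reached at most 2.04 CPM in the others, and Krt18 alone held 372 to 1570 CPM in double negative cells. Wild type TdTOSX single positive replicate 1 had both the lowest summed level, 33.8 CPM, and the lowest Met value, 0.306 CPM. The order was not strict, since Cdh2-cKO double negative replicate 1 had the most Met (22.1 CPM) at a sum of 1228 CPM, below the 1994 CPM of replicate 2. Endothelial markers, another known site of Met, summed to 36.1 to 313 CPM in double negative, at most 156 CPM in TdTOSX single positive and 8.66 to 217 CPM in CD45+ libraries. Neither cell type's part in the Met values was tested.

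**Figure D3:**
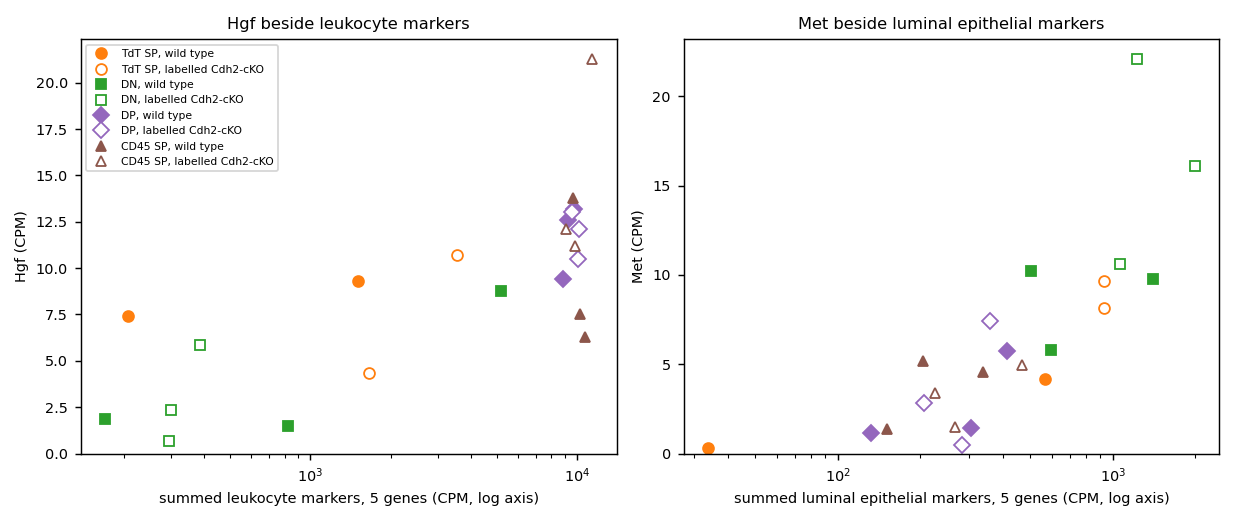
Hgf against the summed leukocyte markers (left) and Met against the summed luminal epithelial markers, mostly keratins in CD45- cells (right), in normalized CPM per library with a logarithmic marker axis; symbols give the population and filled or open points the labelled genotype. CD45+ libraries form a column of high leukocyte sums with Hgf between 6.30 and 21.3 CPM. The double negative libraries hold the highest Met values, up to 22.1 CPM. In CD45+ libraries Cdh1 makes up much of the luminal sum.

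The next comparison asked whether TdTOSX+ cells differ from TdTOSX- cells of the same CD45 status. Within CD45- cells none of the 8 genes was called between TdTOSX single positive and double negative cells, where 1.89% of all genes tested were called in either direction (284 genes, or 185 with the replicate block). The smallest adjusted p was 0.212, for Hgf. The FGF ligands and receptors had log2 fold changes between 0.02 and 0.63 with SEs of 0.520 to 2.14, the widest of them for Fgfr2. Fgfr1 had a difference of 0.29 (SE 0.546, adjusted p = 0.807, edgeR) and Fgf7 of 0.28 (SE 0.552, adjusted p = 0.817, edgeR).

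Hgf and Met had the largest differences in this comparison, in opposite directions. Hgf was higher in TdTOSX single positive cells by a log2 fold change of 1.19 (SE 0.505, adjusted p = 0.212, edgeR), and the libraries of the populations overlapped. Within each of the 4 same-numbered pairs of libraries Hgf was higher in the TdTOSX single positive one. These pairs leave out replicate 3 of the double negative cells, at 8.76 CPM in wild type and 5.88 CPM in Cdh2-cKO. Those were the highest Hgf values of that population. With a block for the replicate number within each genotype the log2 fold change was 1.84 with an adjusted p of 0.0497 (edgeR). That block treats equal numbers as paired in all populations, which the labels do not say. The call depended on the test: voom gave 2.01 with an adjusted p of 0.0406, and without wild type double negative replicate 3 edgeR gave 1.81 with an adjusted p of 0.0304. DESeq2 did not call it. Met was lower in TdTOSX single positive cells by a log2 fold change of -1.39 (SE 0.698, adjusted p = 0.287, edgeR), and -2.82 without wild type TdTOSX single positive replicate 2 (adjusted p = 0.0708). With the replicate block it was -1.60 (adjusted p = 0.254).

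Within CD45+ cells none of the 8 genes was called between double positive and CD45 single positive cells, and 0.00666% of all genes tested were called, which is 1 gene of 15018. Hgf had a log2 fold change of 0.01 (SE 0.452) and Met of -0.14 (SE 0.610). Fgf7 had a value of -2.63 (SE 1.03, unadjusted p = 0.0206, adjusted p = 1, edgeR). It rested on 4 reads in 6 double positive and 27 reads in 6 CD45 single positive libraries. Wild type CD45 single positive replicate 2 held 11 of the 27 reads, and without it the log2 fold change was -0.09. Without Cdh2-cKO double positive replicate 2 it was -3.99. In each of these fits every library left in the affected group was at 0.

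Set against the averaged other 3 populations, TdTOSX single positive cells had 6 of the 8 genes higher (Fgf7, Fgfr1, Fgf18, Fgf10, Fgf1 and Fgfr2), against 23.9% of all genes called higher and 14.2% lower. The log2 fold changes ran from 1.70 for Fgf1 to 5.36 for Fgf7, whereas Hgf (0.02, adjusted p = 0.982) and Met (-0.17, adjusted p = 0.839) were not called. Without Cdh2-cKO TdTOSX single positive replicate 1 only Fgf7, Fgfr1 and Fgf18 were called, and Fgf1 had a value of 0.83 (adjusted p = 0.187), Fgfr2 of 2.26 (adjusted p = 0.198) and Fgf10 of 1.26 (adjusted p = 1, in edgeR). Without wild type TdTOSX single positive replicate 1 the call of Fgfr2 was also lost (2.49, adjusted p = 0.0899), as it was with DESeq2 (2.73, adjusted p = 0.0559) and in the wild type libraries alone (4.59, adjusted p = 0.0558). Fgf18 was not called in wild type alone either (2.57, adjusted p = 0.0554, edgeR).

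Double negative cells had 7 of the 8 genes higher and Hgf lower, against 25.8% of all genes called higher and 22.6% lower. Fgf7 had a log2 fold change of 4.98, Fgf10 of 3.52, Fgfr1 of 2.81, Fgfr2 of 2.73, Fgf18 of 2.21, Met of 1.69 and Fgf1 of 1.12. Without wild type double negative replicate 1, Fgf1 (0.98, adjusted p = 0.0714) and Fgfr2 (2.03, adjusted p = 0.0716) were no longer called, nor was Fgf1 without Cdh2-cKO double negative replicate 3 (adjusted p = 0.0656 in edgeR).

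In double positive and in CD45 single positive cells none of the 8 genes was called higher than in the average of the others, where 20.8% and 22.2% of all genes were. In each of them 5 genes were lower, against 22.4% and 18.1% of all genes. In double positive cells these were Fgf7 (-6.92), Fgf10 (-4.43), Fgfr1 (-3.70), Fgf18 (-3.14) and Fgf1 (-1.49) on the log2 scale. In CD45 single positive cells they were Fgfr2 (-4.79), Fgf7 (-3.41), Fgfr1 (-2.32), Fgf18 (-2.13) and Fgf1 (-1.33). Hgf was higher by 0.78 in double positive (adjusted p = 0.0955, edgeR) and by 0.77 in CD45 single positive cells (adjusted p = 0.105, edgeR), and both differences were called by voom, with adjusted p-values of 0.00217 and 0.00377, and by edgeR without wild type double negative replicate 3 (0.0173 and 0.0235) or Cdh2-cKO double negative replicate 3 (0.0315 and 0.0363). The counts of the low genes were fragile here. In double positive cells Fgf7 (-6.08) and Fgf10 (-4.10) lost their calls without wild type CD45 single positive replicate 2, where whole groups were at 0, and in CD45 single positive cells Fgf18 lost its call in 11 of 22 fits that left out a library and Fgf1 in 4. Fgf7 (-2.96) lost its call there without Cdh2-cKO double positive replicate 2, and Fgfr2 without that library (-4.15) or wild type double positive replicate 3 (-4.06), with adjusted p-values of 1 and groups at 0. For Fgf10 in CD45 single positive cells edgeR gave no usable SE, because whole groups of libraries were at 0.

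The last comparison set the libraries labelled Cdh2-cKO against wild type within each population. None of the 8 genes was called in any of the 4 populations. Over all genes tested, 0.00666% were called in TdTOSX single positive cells and 0% in each of the other 3 populations by edgeR. At an unadjusted p below 0.05 there were 515 genes for the double positive sort, 1474 for CD45 single positive and 1441 for double negative cells. DESeq2 called 1, 26 and 522 genes in these, and 134 for TdTOSX single positive cells. No member was among those called by DESeq2.

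The 3 genotype differences with the smallest p-values were those of the epithelium-directed ligands Fgf10 and Fgf7 and of Fgfr2, in TdTOSX single positive cells. Fgf10 was at 4.69 and 2.67 CPM in wild type and at 0.514 and 0 CPM in Cdh2-cKO libraries (log2 fold change of -3.76, SE 1.38, adjusted p = 0.399, edgeR). Fgfr2 was at 3.06 and 1.59 CPM against 0.274 and 0.0911 CPM (-3.59, SE 1.71, adjusted p = 0.482, edgeR). Fgf7 was at 62.3 and 35.4 CPM against 12.2 and 14.7 CPM (-1.86, SE 0.887, adjusted p = 0.479, edgeR). No difference passed the test, and the 3 genes are named only because their p-values were the smallest. Over all genes, 1576 had an unadjusted p below 0.05 in this comparison. The fibroblast marker sum was also higher in wild type, at 60187 and 32362 CPM against 13897 and 28816 CPM in Cdh2-cKO. Each pair of values in this paragraph gives replicate 1 first and replicate 2 second. The part of the fibroblast marker sum in the differences was not tested.

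Met had the opposite sign, at 1.97 in TdTOSX single positive (SE 1.07, adjusted p = 0.539) and 0.92 in double negative cells (SE 0.844, adjusted p = 0.946, edgeR). The sums of the luminal epithelial markers, of which Epcam and Cdh1 were low in CD45- cells, were also higher in the Cdh2-cKO libraries, at 928 and 933 against 33.8 and 566 CPM in TdTOSX single positive cells. The log2 differences of Hgf were -0.15 (SE 0.785) for TdTOSX single positive, 0.02 (SE 0.640) for double positive, 0.69 (SE 0.644) for CD45 single positive and -0.43 (SE 0.657) for double negative cells, none of which was called. Fgf18 had values of -2.53 (SE 1.32) in CD45 single positive and -1.57 (SE 0.871) in double negative cells, which were not called either. The effect of CD45 differed between genotypes for none of the 8 genes (0% of all genes called, 1157 at an unadjusted p below 0.05), and the TdTOSX effect in CD45- cells likewise for none of the 8 (0.00666% of all genes called). The smallest adjusted p-values were 0.765 and 0.787.

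Other genes of the pathways, in 5 lists by role, were followed through the same fits. In CD45- cells 31.1% of all genes were called higher and 32.6% lower, and the counts of these short lists are to be read against those shares. Of 17 other FGF ligands only 3 passed the filter. Fgf21, an endocrine FGF best known from liver, was higher in CD45- cells, at 0.771 to 19.7 CPM against at most 0.234 CPM (log2 fold change of 8.24, SE 0.777). Fgf13, an intracellular FGF homolog that is not secreted, was lower there, at 0 to 6.44 CPM against 5.44 to 25 CPM (-4.02, SE 0.524). Fgf11, of the same intracellular subfamily, was higher (1.68, SE 0.337).

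Of 11 other FGF receptor and co-receptor genes 7 were tested. In CD45- cells 4 of these were higher and 3 lower, the latter a share near that over all genes. The 3 with the smallest p were heparan sulfate proteoglycans: Sdc2 (4.86, SE 0.322), Gpc1 (3.97, SE 0.269) and Sdc1 (3.73, SE 0.294) were higher in CD45- cells on the log2 scale. Sdc2 was at 219 to 651 CPM in CD45- and at 3.97 to 62.8 CPM in CD45+ libraries. Klb, the co-receptor for Fgf21 and named here after its value was seen, was on the opposite side from its ligand, at 0 to 0.385 CPM in CD45- and 0.0573 to 2.43 CPM in CD45+ libraries (-4.40, SE 0.609).

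Of 9 genes for proteins that activate or inhibit HGF and for its relatives 7 were tested, with 2 higher and 3 lower in CD45- cells, both shares near those over all genes. Plat, the tissue plasminogen activator, was at 335 to 1935 CPM in CD45- and at 6.20 to 42.8 CPM in CD45+ libraries (5.78, SE 0.325). Mst1r, the receptor of the HGF relative Mst1, was higher (4.45, SE 0.486), and Spint1, an inhibitor of the HGF-activating proteases, was lower in CD45- cells (-3.31, SE 0.595). The activating proteases St14 (matriptase, -4.41, SE 0.790) and Hpn (hepsin, -1.98, SE 0.572), named after their values were seen, were lower there too. The median log2 fold change of the list was -0.73.

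Of 8 adaptors and transducers tested, 5 were higher and 2 lower in CD45- cells, with log2 fold changes between -1.14 and 1.36. By smallest p, Shc1 was higher by 0.54 (SE 0.081) and Ptpn11, the phosphatase Shp2, by 0.80 (SE 0.145). The adaptor Grb2 was at -1.08 (SE 0.142). All 10 feedback inhibitors and targets of the pathway were tested, 7 of them higher and 1, the Ets factor Etv5 (-1.14, SE 0.180), lower. Spry4, a Sprouty inhibitor of receptor tyrosine kinase signaling, was at up to 66.7 CPM (median 36.3) in CD45- and at 0.416 to 4.62 CPM in CD45+ libraries (4.64, SE 0.302). Etv4, an Ets factor induced by FGF signaling, had a value of 3.51 (SE 0.272) and Il17rd, the membrane inhibitor Sef, of 5.22 (SE 0.429). Adjusted p-values of the genes named by smallest p ran from 1.84e-10 for Plat to 0.00031 for Fgf11 (edgeR). The median log2 fold changes were 1.68 for the other ligands, 2.50 for receptors and co-receptors, 0.49 for adaptors and 1.24 for feedback inhibitors and targets, against -0.06 over all genes. None of the 35 tested genes of the 5 lists was called between TdTOSX single positive and double negative cells, between double positive and CD45 single positive cells, or between the genotypes in any population. Over all genes tested, 1.89%, 0.00666% and at most 0.00666% were called in these comparisons. At such shares the absence of calls in 35 genes is no result about them.

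**Figure D4:**
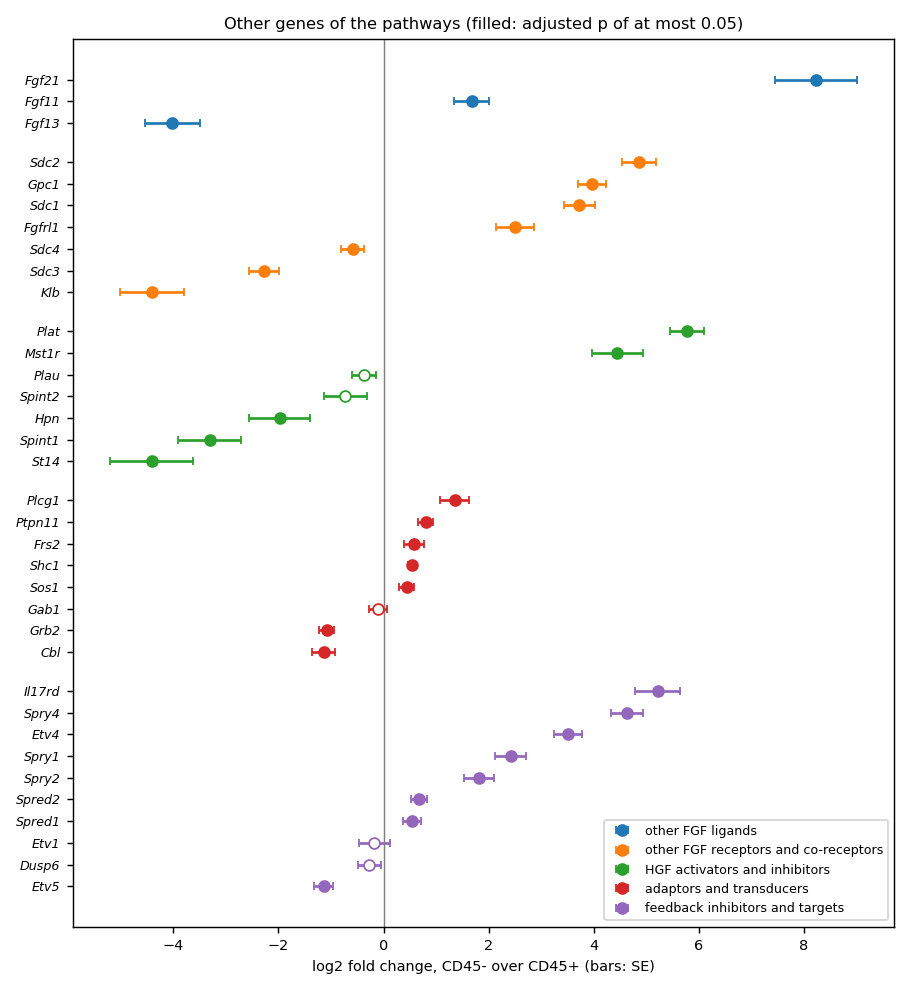
Log2 fold changes of CD45- over CD45+ cells with SE bars for the 35 tested genes of the 5 other pathway lists, colored by list; filled points have an adjusted p of at most 0.05 (edgeR). Proteoglycans such as Sdc2 (4.86) and feedback inhibitors such as Spry4 (4.64) lie to the right, and Klb (-4.40) and Spint1 (-3.31) to the left.

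The genes most alike in pattern over the 22 libraries were found by Pearson's r of log2 CPM, which is a description across libraries that share the CD45 split. For Fgf7 they were Lum, Dcn and Serping1 (r of 0.990 each), and Lum and Dcn are matrix proteoglycans and also members of the fibroblast marker list. For Fgfr1 they were Cnn3 (0.992), Tgfbr3 and Afap1 (0.989 each), for Fgf10 Npy1r (0.967), Sema5b (0.964) and Ccl19 (0.951), and for Fgfr2 C1ra (0.925) and Gucy1a2 (0.915). Fgf18 was most like 2310040G07Rik (0.904), Tril (0.899) and Card10 (0.891), and Fgf1 like Apol6 (0.889), Btbd3 (0.886) and Slc16a12 (0.884). Hgf was most like Rgs7bp (0.917), Tm4sf19 (0.909) and Zfp991 (0.907). For Met they were Plek2 (0.872), Lad1 (0.868) and Plet1 (0.866), of which Lad1 encodes a basement membrane protein of epithelia.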

How the data were processed

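RNA from 22 sorted libraries was sequenced after amplification with a SMARTer kit. Per the labels, reads were aligned with STAR 2.0.4b to GRCm38 and counted on genes with featureCounts 1.45 of the Subread package. The authors deposited whole-number counts per gene without normalization, for 41388 genes. The deposited CPM are those counts scaled to each library's total by the authors, and the deposited RPKM are that CPM per kilobase of gene length, which follows from the counts to a relative deviation of at most 5.11e-14. Tests used the counts; the deposited RPKM served as an alternative for levels.

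Computed here in R 4.3.3: 355 rRNA genes were left out, 15018 genes above 1 CPM in 2 or more libraries were kept, and a quasi-likelihood model was fitted in edgeR 4.0.16 with TMM factors and 1 mean for each of the 8 groups. SEs derive from the quasi-likelihood F. A gene was called where the p adjusted by Benjamini-Hochberg was 0.05 or less, with no fold threshold. Alternatives were limma 3.58.1 (voomWithQualityWeights, the study's test), DESeq2 1.42.0, RLE factors, no filter, a log2 fold of at least 2, each library left out, a replicate block, and each genotype alone. Deviations of same-numbered libraries from their group means correlated at 0.113 to 0.593 in the 4 pairs of TdTOSX single positive and double negative libraries. Pairs of other populations also lay in this range, up to 0.412 for wild type double positive and CD45 single positive replicate 1. Of all 30 same-numbered pairs, 10 were above 0.1. With 2 TdTOSX single positive libraries per genotype the deviations mirror each other, so the 4 values are not independent. Pairing by number is thus an assumption that the labels do not give, and the replicate block makes it for all populations. Leaving out 3 libraries together was added after seeing the data. The fits were tested on simulated counts. Depth was 16594228 to 26784003 counts per library; intervals are exact (Clopper-Pearson, 95%) and, like the 3-count floor, cover counting error only.

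The members, the pathway and marker lists and the tests were chosen with earlier results of these data known. Named were all 10 members, the 3 genes of each other list with the smallest p between CD45- and CD45+ cells, the 3 genes most like each member (1 of those for Fgfr2 is not reported here), and Cdh2 as a check of the labels. Promoter sequences are from RefSeq (GRCm38.p6).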

Additional observations from a re-analysis of the deposited data

How the results depend on the processing

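With a fit of the wild type libraries only, 4 of 8 members were called in double negative and 0 in CD45 single positive cells, each set against the averaged others. In the Cdh2-cKO libraries only, 5 members passed the filter, and 5 were called between CD45- and CD45+ cells, 2 in each of TdTOSX single positive, double positive and CD45 single positive cells and 4 in double negative cells against the others. A log2 fold of at least 2 left 5 in double negative cells, where it left 1930 higher and 778 lower over all genes. Leaving out the 3 libraries that stood apart left 3 in TdTOSX single positive cells. The fits that left out 1 library called 0 to 1 members between TdTOSX single positive and double negative cells, and 3 to 6 in TdTOSX single positive, 3 to 6 in double positive and 2 to 6 in CD45 single positive cells against the others. Voom called 1 member (Hgf) between TdTOSX single positive and double negative cells. Calls over all genes also moved with some of these settings, as given below. Shares over all genes are not given for the other fits, so a lost call there is no result about the members.

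Over all populations the correlations of same-numbered libraries ran from -0.296 to 0.593. They do not settle which libraries are paired, and the main fits used no block. With a replicate block, Hgf was called between TdTOSX single positive and double negative cells (1 member, log2 fold change of 1.84, adjusted p = 0.0497), and 3 members in CD45 single positive cells against the others, while Fgfr2 was not called in TdTOSX single positive cells (3.00, adjusted p = 0.0713).

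Between TdTOSX single positive and double negative cells, where none of these values was called, the sign turned for Fgf1 (-0.44 without Cdh2-cKO TdTOSX single positive replicate 1, up to 0.82 without replicate 2; -0.58 without the 3 libraries), Fgf10 (-2.36 to 1.15 over single libraries left out; -2.61 without the 3), Fgf18 (-0.17 in wild type only; -0.07 to 1.14), Fgf7 (-0.29) and Fgfr1 (-0.16) in Cdh2-cKO only, and Fgfr2 (-0.03 with DESeq2, -0.01 with RLE factors, -0.77 without the 3; -0.47 to 0.72, with -0.25, -0.07, -0.27 and -0.17 between). The cause was not tested. Over all genes that comparison had 284 calls, 718 with voom, 982 with DESeq2, 92 without a filter, 185 with the block, 0 in wild type only, 1149 in Cdh2-cKO only, 769 without the 3 libraries and 39 with the fold threshold. Genotype calls over all genes also moved with DESeq2, and the CD45 comparison went from 9570 to 5575 in wild type only and 3709 with the fold threshold. Low counts limit Fgf2, Fgfr3, Fgf10, Fgf18 and Fgfr2, and in some fits groups with every library at 0 left no usable SE. Fgf10 was at 0 in all 3 Cdh2-cKO double positive libraries and Fgfr2 in all 3 wild type CD45 single positive libraries. The SEs given for these 2 genes are limited by that.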
